A study of Mus musculus with 4 samples.

Results

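The nuclear lamina and HMGA genes are 9 of the 17374 genes in the RNA-seq table of mouse oocytes, and their 61 transcripts are 61 of the 45505 transcripts listed. They are the lamins (Lmna, Lmnb1 and Lmnb2), 4 proteins of the inner nuclear membrane or its surroundings (Lbr, Emd, Tmpo and Sun1), and the DNA-binding proteins Hmga1 and Hmga2. Members were chosen by gene symbol, and each was found by its NCBI gene ID. The libraries were made from pooled, denuded germinal vesicle (GV) stage oocytes of non-primed females at postnatal day 16. All oocytes, control and irradiated, were held in meiotic arrest with milrinone, an inhibitor of phosphodiesterase 3A. The irradiated oocytes received 5 Gy of γ-irradiation in culture and were analysed 24 h later. The females were C57/Bl6/DBA2J F1 hybrids per the study's methods. Each condition had 2 libraries from independent experimental replicates.

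The lamina is a mesh of intermediate filaments beneath the inner nuclear membrane. B-type lamins stay farnesylated and bound to the membrane, whereas mature lamin A loses its farnesyl tail and lamin C never carries one. The lamin B receptor (LBR) binds heterochromatin to the membrane, emerin (Emd) and LAP2 (Tmpo) carry the LEM domain that binds barrier-to-autointegration factor, and SUN1 spans the inner membrane and links the nucleus to the cytoskeleton. In meiotic prophase SUN1 also attaches telomeres to the envelope. HMGA1 and HMGA2 bind the minor groove of AT-rich DNA through AT hooks. The comparison asked whether the RNA of these genes differed 24 h after DNA damage, in oocytes whose pericentric heterochromatin the study examined.

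The sequences shown here bear on 2 features of the members that the values below return to, the separate start sites of Lmna and the 3′ untranslated region (UTR) of Hmga2. For Lmna, 2 start windows from RefSeq on GRCm38.p6 were at hand, both on the minus strand. The RefSeq span of the gene begins further upstream, at 88509932, and neither window covers that end. The upstream window lies at the start of lamin A and lamin C, and the downstream window, inside the gene, lies at the start of lamin C2, a short isoform first known from meiotic male germ cells. Each window of the table spans the start site and is printed 5′ to 3′ on the transcribed strand, with CG dinucleotides in capitals.
Lmna upstream start, chr3:88503303-88503602, minus strand: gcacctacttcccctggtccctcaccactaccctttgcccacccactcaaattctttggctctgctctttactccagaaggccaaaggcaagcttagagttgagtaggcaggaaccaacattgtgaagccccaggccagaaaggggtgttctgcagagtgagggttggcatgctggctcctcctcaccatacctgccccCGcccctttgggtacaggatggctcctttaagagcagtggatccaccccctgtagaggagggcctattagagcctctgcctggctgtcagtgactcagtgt
Lmna lamin C2 start, chr3:88493263-88493562, minus strand: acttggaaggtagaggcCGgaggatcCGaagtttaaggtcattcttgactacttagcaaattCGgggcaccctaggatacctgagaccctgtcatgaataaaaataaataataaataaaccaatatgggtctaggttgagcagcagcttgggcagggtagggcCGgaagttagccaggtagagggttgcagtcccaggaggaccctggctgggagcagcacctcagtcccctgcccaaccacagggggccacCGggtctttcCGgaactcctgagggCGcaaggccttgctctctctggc
The upstream window held 1 CG and the lamin C2 window held 7, against a median of 7 over all 32851 windows of this length in the RefSeq table. The upstream windows of the other members in the table held 42 for Lbr, 40 for Hmga1, 36 for both Sun1 and Tmpo, 24 for Lmnb2, 15 for Emd and 12 for Hmga2. The RefSeq span of Tmpo also begins upstream of its windows, at 91181752.

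Hmga2 is a textbook target of the let-7 miRNAs. Its transcript lies on the minus strand of chromosome 10, and its 3′ UTR of 2980 bases falls within 1 exon. The letters CTACCTC, which pair with the let-7 seed (bases 2 to 8, GAGGUAG, in capitals in the miRNA), were searched on the transcribed strand. They occurred 4 times, and they are in capitals in the sites.
mmu-let-7a-5p, mature miRNA from RefSeq: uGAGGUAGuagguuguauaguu
Hmga2 site 1, chr10:120364224-120364246, minus strand: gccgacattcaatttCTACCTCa
Hmga2 site 2, chr10:120362987-120363009, minus strand: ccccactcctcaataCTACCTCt
Hmga2 site 3, chr10:120362549-120362571, minus strand: ctgatttgcaaggaaCTACCTCc
Hmga2 site 4, chr10:120361691-120361713, minus strand: aatcaaaacacactaCTACCTCt
The matches began at bases 24, 1261, 1699 and 2557 of the UTR, counted from 1 at the first base after the coding region, the stop codon included. The seed was shared by 8 let-7 sequences in the table used here. Among 2843 genes with a 3′ UTR at least as long in GENCODE M21, 17.1% held the match at least once in their first 2980 bases, and 2 genes held it 4 times. In the longest 3′ UTR of the other members, Lbr, Tmpo and Hmga1 each held 1 match, and Lmna, Lmnb1, Lmnb2, Emd and Sun1 held 0. The miRNAs themselves were not analysed here.

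The estimated counts summed to between 33349466 and 37232818 per library. Irradiated library 2 stood apart from the other 3. Its TMM factor, which scales a library to the bulk of its genes, was 1.19 against 0.923 to 0.975, and 14122 genes had more than 3 counts in it against 13650 to 13702. In the 1170 genes of highest TPM (a level corrected for transcript length and for the size of the library), the median log2 difference in normalized count between irradiated libraries 2 and 1 was -0.31, while control library 2 differed from control library 1 by -0.051. All 12 oocyte markers were above 3 counts in all 4 libraries, with summed TPM of 51124 to 51481 in controls and 46215 to 50768 after irradiation. Of 19 granulosa and cumulus markers, 13 were listed and 8 were above 3 counts in all libraries. Amh, Amhr2, Foxl2, Wt1, Fst and Slc38a3 were not listed. Esr2 had a mean TPM of 34.4 and Cyp19a1 of 9.53, whereas Inha, Inhba, Hsd17b1 and Has2 had 0.215, 0.017, 0.028 and 0.008. The summed TPM of the 13 listed markers was 48.6 to 53.5 in controls and 49.0 to 68.6 after irradiation. It was highest in irradiated library 2. Of 10 markers of stroma, theca, endothelium and immune cells, 3 were listed and Cyp17a1 was at or under 3 counts throughout, with a summed TPM of 4.01 to 5.16 in controls and 4.18 to 6.02 after irradiation. The part of library 2, and of any RNA from such other cells, in the values below was not tested, except where a value without library 2 is given. In pooled oocytes, fewer cells with an RNA and less of it per cell cannot be told apart.

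Lbr was by far the most abundant of the 9 genes (chromosome 1, 181815315 to 181842401 on GRCm38.p6). Its TPM was 134 and 142 in control libraries 1 and 2 and 150 and 129 in irradiated libraries 1 and 2, placing it at the 94.6th percentile of all genes by mean TPM. The levels overlapped between conditions. Lbr made up 79.4%, 79.1%, 79.3% and 68.0% of the summed TPM of the 9 genes. Its TPM was 21.0, 19.4, 17.3 and 10.4 times that of Lmna in the same order of libraries, so that irradiated library 2 lay lowest on both measures.

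**Figure D1:**
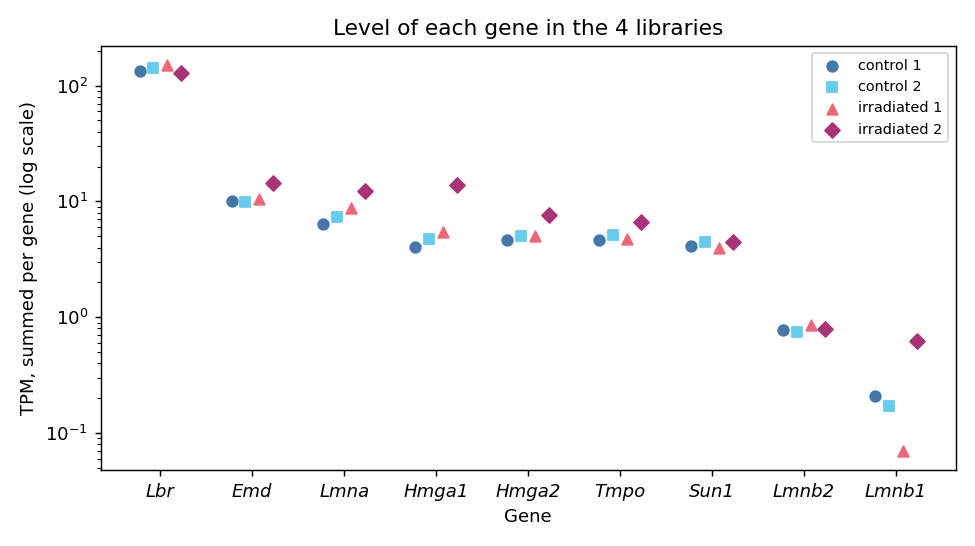
TPM summed per gene (log axis) for the 9 genes in the 4 libraries, 1 point per library, ordered by mean TPM. Lbr lies between 129 and 150, Emd to Sun1 between 3.98 and 14.3, Lmnb2 between 0.750 and 0.860, and Lmnb1 between 0.0700 and 0.620.

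Lmna supplied most of the lamin RNA (chromosome 3, 88481148 to 88509932). Its TPM was 6.41 and 7.34 in controls and 8.69 and 12.3 in irradiated oocytes, and both irradiated libraries lay above both controls. On this scale the same held for Emd, Hmga1 and Lmnb2. The share of all genes with this pattern in TPM was not counted, but 10091 of 12569 genes were higher after irradiation on log2(TPM + 1). On normalized counts, where 22.1% of all genes showed the pattern, Lmna and Hmga1 kept it and Emd and Lmnb2 did not. Lmna held 86.7% to 90.3% of the summed TPM of the 3 lamins in each library. Lmnb2 (chromosome 10, 80901363 to 80918245) had a TPM of 0.770 and 0.750 in controls and 0.860 and 0.790 after irradiation, with counts of 57 to 69 in all libraries. Lmnb1 (chromosome 18, 56707813 to 56753424), the B-type lamin of most somatic cells, was at the 31.9th percentile. It had counts of 15 and 11 in controls and 5 and 39 in irradiated oocytes, close to the limit of 3 counts below which a gene was taken as undetected. The irradiated libraries lay on either side of the controls, so the counts gave no order of the conditions.

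The other membrane proteins formed a middle group. Emd (chromosome X, 74254674 to 74261563) had a TPM of 10.1 and 9.95 in controls and 10.4 and 14.3 after irradiation. Tmpo (chromosome 10, 91147571 to 91181752) had a TPM of 4.66 and 5.16 in controls and 4.77 and 6.58 after irradiation. Sun1 (chromosome 5, 139200564 to 139249839) had a TPM of 4.10 and 4.47 in controls and 3.98 and 4.47 after irradiation. Emd and Tmpo were highest in irradiated library 2, and the conditions overlapped for Tmpo and Sun1 on this scale.

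Hmga1 and Hmga2 had like levels in 3 of the 4 libraries. Hmga1 (chromosome 17, 27556574 to 27563672) had a TPM of 4.03 and 4.73 in controls and 5.41 and 13.9 in irradiated oocytes. Hmga2 (chromosome 10, 120361268 to 120476469) had a TPM of 4.60 and 5.02 in controls and 4.99 and 7.65 after irradiation. The ratio of Hmga2 to Hmga1 was 1.14 and 1.06 in controls and 0.922 and 0.550 after irradiation. The value of Hmga1 in irradiated library 2 stood far from the other 3.

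The order by mean TPM was Lbr, Emd, Lmna, Hmga1, Hmga2, Tmpo, Sun1, Lmnb2 and Lmnb1. The ranges over the 4 libraries were apart between Lbr and Emd, Tmpo and Sun1, Sun1 and Lmnb2, and Lmnb2 and Lmnb1. They overlapped between all neighbours from Emd to Tmpo, although Emd lay wholly above Hmga2 and Tmpo. When levels were instead computed from the gene's count and the length of its longest coding transcript, 7 of the 9 ranks were the same, and Hmga1 and Hmga2 changed places.

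None of the 9 gene totals passed the test between irradiated and control oocytes. A call needed an adjusted p under 0.05 by edgeR's quasi-likelihood test over all 12569 genes tested and a log2 fold change over 2 in size, which 0.00796% of these genes met. All 9 members passed the filter on low counts, and DESeq2, edgeR's exact test and limma also called 0 of them. At an unadjusted p under 0.05, 2 of 9 were higher (Lmna and Hmga1) and 0 lower, against 5.92% of all genes in either direction and 4.63% higher. With TMM factors 744 genes were at that p, 582 higher and 162 lower. With library size alone 586 genes were, 552 higher and 34 lower. Library size alone moved the median log2 fold change of all genes from 0.010 to 0.17, and log2(TPM + 1) moved it to 0.14. Normalized counts (counts divided by library size and TMM factor) of both irradiated libraries lay above those of both controls for Lmna, Hmga1 and Hmga2, and below for Tmpo and Sun1. Over all genes these patterns were met by 22.1% (above) and 19.9% (below).

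The lamin A gene had the smallest p of the 9. Its normalized counts were 425 and 466 in controls (446 ± 28.8, SD, n = 2) and 553 and 659 in irradiated oocytes (606 ± 74.8, SD, n = 2). The log2 fold change was 0.44 (SE 0.150, 95% interval 0.088 to 0.80), with an unadjusted p of 0.0216 and an adjusted p of 0.708. Lmna was higher in every alternative tried, between 0.31 and 0.62 on the log2 scale. Leaving out irradiated library 2 gave 0.31, and leaving out irradiated library 1 gave 0.55 with an adjusted p of 2.06e-05. In these fits the lone library of a condition was assumed to vary like the other condition. Without irradiated library 1, 34.3% of all genes tested and 5 of the 9 members (Lmna, Hmga1, Lbr, Sun1 and Lmnb1) had an adjusted p under 0.05, against 1 gene of 12569 with all 4 libraries, so a small adjusted p in that fit was not particular to the members.

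Hmga1 had the largest fold change, and it rested mainly on 1 library. Its normalized counts were 170 and 184 in controls (177 ± 9.98, SD, n = 2) and 218 and 421 in irradiated oocytes (320 ± 144, SD, n = 2). The log2 fold change was 0.86 (SE 0.304, 95% interval 0.14 to 1.58), with an unadjusted p of 0.0261 and an adjusted p of 0.708. Without irradiated library 2 it was 0.30. Without irradiated library 1 it was 1.24, with an adjusted p of 1.3e-13 in the fit where 34.3% of all genes passed. Hmga1 shares sequence with Hmga1b, a gene on chromosome 11, which holds 74.6% to 93.8% of the 25-base words of the annotated Hmga1 transcripts. Hmga1b had counts of 140 and 155 in controls and 115 and 449 in irradiated oocytes, so the division of reads between both genes is uncertain. Hmga1b was also highest in irradiated library 2.

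**Figure D2:**
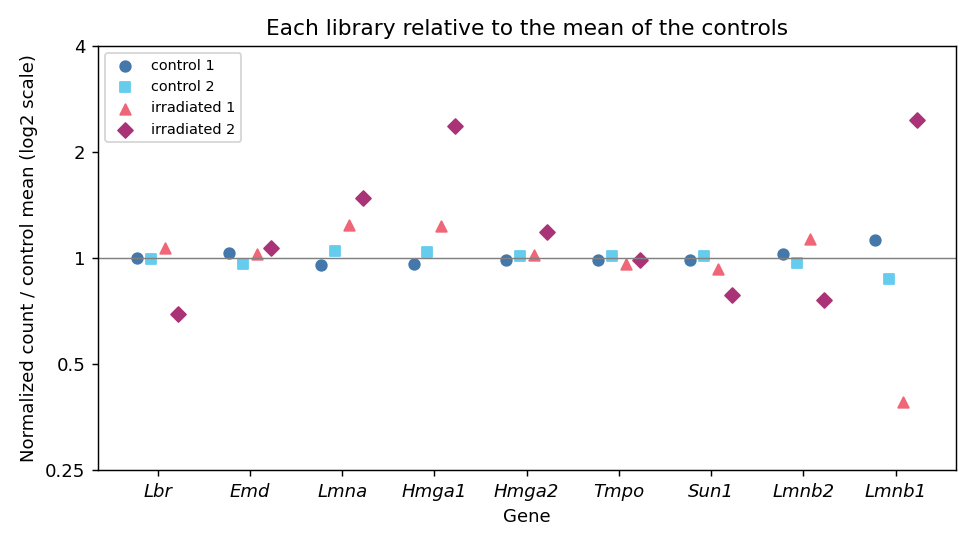
Normalized count of each gene in each library divided by the mean of its 2 controls (log2 axis), 1 point per library, with a line at 1. Irradiated library 2 lies at 2.38 for Hmga1, 1.48 for Lmna, 2.46 for Lmnb1 and 0.693 for Lbr, while irradiated library 1 lies at 1.23, 1.24, 0.390 and 1.07.

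Hmga2, the gene with the let-7 matches shown above, did not pass the test. Its normalized counts were 456 and 467 in controls and 472 and 547 after irradiation, with a log2 fold change of 0.14 (SE 0.143, 95% interval -0.19 to 0.48, adjusted p = 0.764). Without irradiated library 2 the value was 0.034. The interval does not reach a 2-fold change in either direction.

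Among the membrane proteins, Lbr had normalized counts of 12712 and 12637 in controls and 13534 and 8781 after irradiation. The controls differed by less than either did from an irradiated library. Its log2 fold change was -0.18 (SE 0.240, 95% interval -0.75 to 0.38, adjusted p = 0.811), and it turned to 0.0071 on the log2(TPM + 1) scale and to 0.095 without irradiated library 2. Without irradiated library 1 it was -0.54 (adjusted p = 1.22e-06, where 34.3% of all genes passed). The 1170 genes of highest TPM, to which Lbr belongs, had a median log2 fold change of -0.18.

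Sun1 had normalized counts of 429 and 442 in controls and 405 and 343 after irradiation. Its log2 fold change was -0.22 (SE 0.151, 95% interval -0.58 to 0.13, adjusted p = 0.714). The value shrank to -0.074 with library size alone and to -0.017 on the log2(TPM + 1) scale. Dropping irradiated library 1 gave -0.36, whereas dropping irradiated library 2 gave -0.10. Tmpo had 452.0 and 462.8 against 439.2 and 451.2, a log2 fold change of -0.039 (95% interval -0.35 to 0.28) that turned to 0.12 with library size alone and to 0.16 on the log2(TPM + 1) scale. Emd had a log2 fold change of 0.066 (95% interval -0.27 to 0.40). In the reported test Tmpo and Emd lay nearest to no difference.

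The B-type lamins also did not pass the test. Lmnb2 had a log2 fold change of -0.091 (95% interval -0.74 to 0.55), which turned to 0.048 with library size alone and to 0.052 on the log2(TPM + 1) scale. Lmnb1 had a log2 fold change of 0.56 with a 95% interval of -1.19 to 2.31. Its direction turned to -1.34 without irradiated library 2, and it was 1.28 without irradiated library 1 (adjusted p = 0.0248, where 34.3% of all genes passed).

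**Figure D3:**
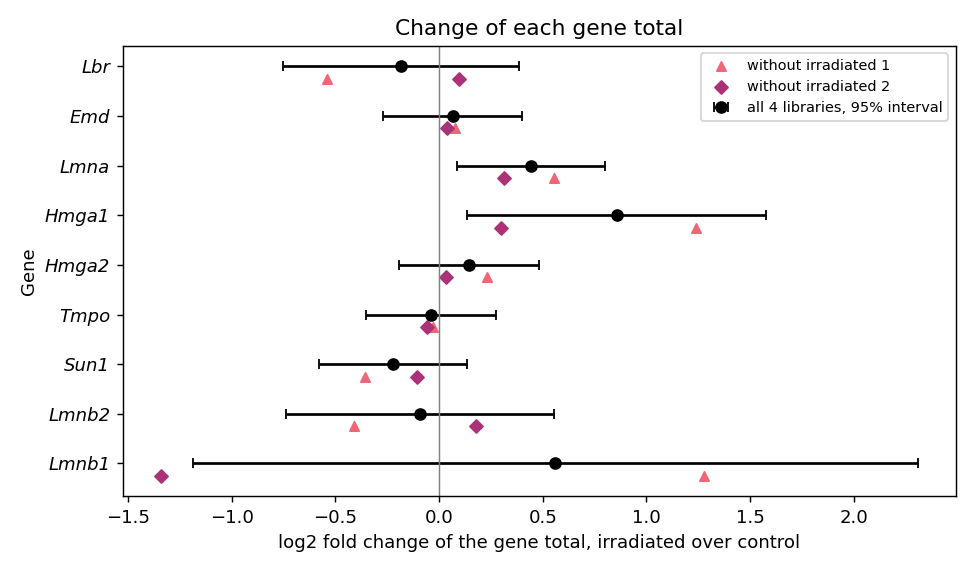
Log2 fold change of each gene total, irradiated over control, with its 95% interval (black, all 4 libraries) and the value when either irradiated library is left out. The intervals of Lmna (0.088 to 0.80) and Hmga1 (0.14 to 1.58) lie above 0, and leaving out irradiated library 2 moves Lmnb1 to -1.34.

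Individual transcripts gave 0 calls among the members. Of the 61 member transcripts 38 passed the filter, and over all 26645 transcripts tested 0% were called by edgeR's quasi-likelihood test, with 1306 (4.9%) at an unadjusted p under 0.05. DESeq2 called 246 transcripts over the whole table. Of the 38 tested, 1 had an unadjusted p under 0.05, a predicted Sun1 transcript with counts of 22 and 13 in controls and 0 and 0 after irradiation. Its log2 fold change in that test was -7.20, with an interval of -12.0 to -2.40 (unadjusted p = 0.0187, adjusted p = 0.777). Taken against 3 counts per library it was 6.36-fold lower after irradiation, which is not a lower bound on the change. Another predicted Sun1 transcript had counts of 61 and 0 in controls and 28 and 0 after irradiation. Whether such 0 counts came from the division of reads among the Sun1 transcripts was not tested. Sun1 had 31 listed transcripts, of which 2 were above 3 counts in all 4 libraries and 8 in 1 library only, and the largest share of the gene's TPM held by any of them in any library was 19.0%.

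Isoform usage, the division of a gene's reads among its transcripts, did not differ beyond the spread for any of the 6 members with 2 or more tested transcripts (Lmna, Lmnb2, Lbr, Tmpo, Sun1 and Hmga1). Their unadjusted p ran from 0.860 to 0.998 by diffSpliceDGE of edgeR with Simes' method. Over 6323 genes, 0.253% passed an adjusted p of 0.05 and 6.12% an unadjusted p of 0.05. The transcripts below were named by the length of the protein that their GENCODE match encodes.

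The lamin C2 transcript starts at the downstream Lmna window shown above and encodes 462 residues. It was assigned estimated counts of 92 and 75 in controls and 106 and 105 after irradiation. Whether these reads belonged to it rather than to other Lmna transcripts was not tested. The TPM of lamin C2 was 2.49 and 2.27 in controls and 3.11 and 3.28 after irradiation, 26.6% to 38.9% of the Lmna total. Its log2 fold change was 0.23 (95% interval -0.61 to 1.06, adjusted p = 1). Lamin A (665 residues) had a TPM of 0.10 and 2.51 in controls and 0.550 and 2.41 after irradiation, and lamin C (574 residues) had 0.420, 0.770, 0.820 and 0 in the same order. A predicted transcript had no GENCODE match, and its start site was not determined here. Its TPM was 3.40 and 1.79 in controls and 4.21 and 6.63 after irradiation (log2 fold change 0.81, 95% interval -0.36 to 1.98, adjusted p = 1). Lamin A was highest where the predicted transcript held its lowest share, in control library 2, and the lamin A share differed more between the controls (1.56% and 34.2%) than between the conditions.

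LAP2 beta and LAP2 alpha of Tmpo were more even, but not every Tmpo isoform was. The transcripts encoding 412 residues held 2.15% and 17.25% of the Tmpo TPM in controls and 0% and 23.4% after irradiation. A predicted transcript held 5.24% to 11.4%. LAP2 beta, the membrane-bound form (452 residues), held 65.7% and 50.4% of the Tmpo TPM in controls and 67.5% and 45.1% after irradiation. LAP2 alpha, the nucleoplasmic form that binds A-type lamins (693 residues), held 20.8%, 21.7%, 21.4% and 18.4%. The log2 fold changes were -0.064 (95% interval -0.83 to 0.71) for LAP2 beta and -0.11 (95% interval -0.87 to 0.65) for LAP2 alpha, and with library size alone they turned to 0.058 and 0.026. LAP2 alpha held the steadier share across libraries.

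**Figure D4:**
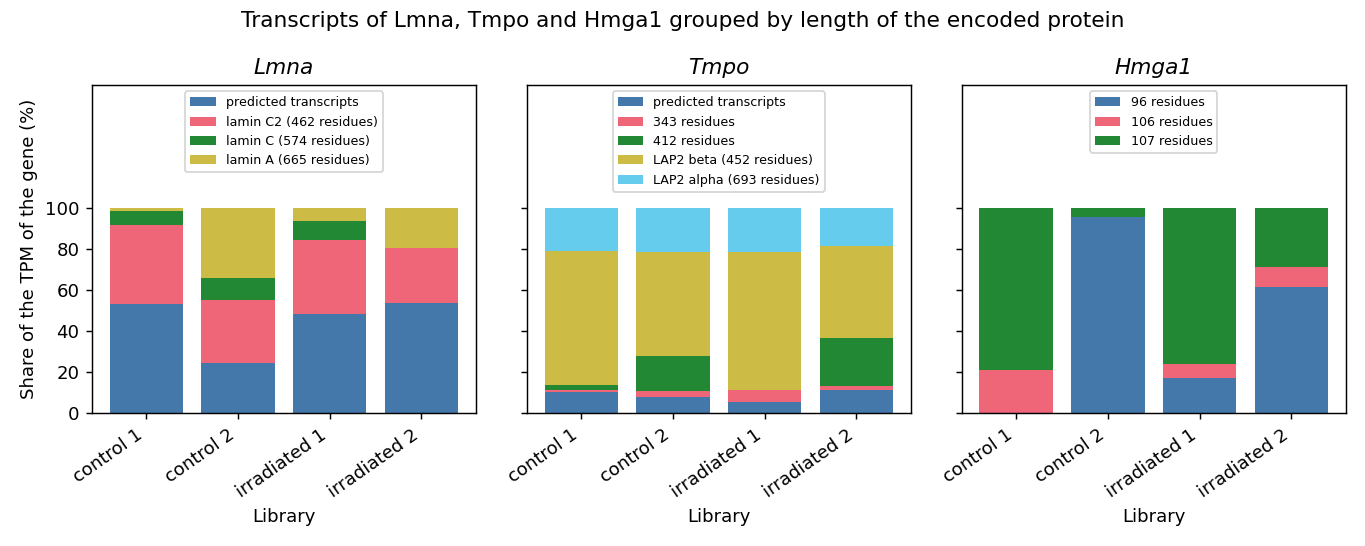
Share of the gene's TPM held by transcripts grouped by encoded protein, for Lmna, Tmpo and Hmga1, with 1 stacked bar per library. Lamin C2 and LAP2 alpha hold 26.6% to 38.9% and 18.4% to 21.7% in the 4 libraries, whereas the 107-residue form of HMGA1 ranges from 4.23% to 78.9%.

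Hmga1 transcripts could not be ordered. Those encoding 107 residues (HMGA1a) held 78.9% and 4.23% in controls and 76.3% and 28.8% after irradiation, and those encoding 96 residues held 0% and 95.8% in controls and 17.2% and 61.3% after irradiation. The controls therefore differed as much as any pair of libraries, and 0 of the 10 Hmga1 transcripts were above 3 counts in all 4. Lbr was carried almost wholly by its 626-residue transcript, at 95.1% to 98.4% (log2 fold change -0.14, 95% interval -0.83 to 0.54), a value that turned to 0.12 without irradiated library 2. Emd was carried by a predicted transcript at 93.6% to 98.5% (log2 fold change 0.040, 95% interval -0.38 to 0.46). The 596-residue transcript of Lmnb2 held 54.4% to 100% of that gene's TPM.

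Genes that work with the lamina and with HMGA proteins were described by lists, and 0 of their members were called. Over all 12569 genes the median log2 fold change was 0.010, and 5.92% had an unadjusted p under 0.05, 582 higher and 162 lower. Of the genes of the LINC complex and inner nuclear membrane, 16 of 20 were tested, with a median of 0.094. At an unadjusted p under 0.05, 1 was higher and 0 lower: Tmem201, which encodes the inner membrane protein SAMP1, had normalized counts of 337 and 387 in controls and 453 and 487 after irradiation (log2 fold change 0.38, SE 0.148, adjusted p = 0.708). The lowest value was -0.17 for Banf1, the partner of LEM domains. Banf1 was the most abundant gene of this list, at a TPM of 669 to 727.

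The 6 genes of lamin processing, which encode enzymes that farnesylate, cleave or methylate prelamin A and the prelamin A binding protein Narf, had a median of 0.14, with 1 higher and 0 lower at that p. Fntb, the beta subunit of farnesyltransferase, had normalized counts of 93.3 and 135 in controls and 144 and 318 after irradiation (log2 fold change 1.02, SE 0.385, adjusted p = 0.708). The lowest was Narf, at -0.090. Fntb, like Hmga1, was highest in irradiated library 2. Of the 7 genes of lamina disassembly, 1 was higher and 0 lower at that p, with a median of -0.051. They encode kinases that phosphorylate lamins or their partners, and the cyclins Ccnb1 and Ccnb2. Plk1 had normalized counts of 1747 and 2090 in controls and 2239 and 3633 after irradiation (log2 fold change 0.61, SE 0.239, adjusted p = 0.708). The highest value was 0.62 for Prkca (SE 0.448), on counts of 9 and 17 in controls and 17 and 28 after irradiation. Its normalized counts overlapped between the conditions. Cdk1 had the lowest value, -0.30.

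All 31 nucleoporins were tested, with a median of -0.071. At an unadjusted p under 0.05, 1 was higher and 1 lower, against 5.92% of all genes in either direction. Nup188 had normalized counts of 523 and 461 in controls and 557 and 1006 after irradiation (log2 fold change 0.67, SE 0.267), and Nup205 had 163 and 156 against 127 and 103 (log2 fold change -0.48, SE 0.198), each with an adjusted p of 0.708. Both belong to the inner ring of the pore. Both irradiated libraries lay above both controls for Nup188 and below both for Nup205, patterns met by 22.1% and 19.9% of all genes. Of the 31 nucleoporins, 6 lay above and 9 below in this way. Nup188 stood far above the controls in irradiated library 2 alone.

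Of the 8 other high-mobility-group genes, of the HMGB and HMGN families, 7 were tested, with 0 at an unadjusted p under 0.05 and a median of -0.072. Hmgb2 had normalized counts of 23358 and 23154 in controls and 22982 and 9369 after irradiation (log2 fold change -0.52), and Hmgb3 had the highest value at 0.16. Irradiated library 1 lay close to the controls for Hmgb2. Of 9 genes of the LIN28, let-7 and IGF2BP group, which control let-7 maturation or bind Hmga2 RNA, 7 were tested, with 0 at that p and a median of 0.013. Lin28a, which blocks let-7 maturation, had a log2 fold change of 0.36 (SE 0.254, unadjusted p = 0.202 by the quasi-likelihood test). Its TPM was low, at 0.61 to 1.32. Dicer1, which cuts let-7 precursors, had -0.42 (SE 0.188, unadjusted p = 0.0613 by that test).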

How the data were processed

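Pooled GV oocyte RNA (poly(A) selected, paired-end reads) was analysed in 2 control and 2 irradiated libraries, grouped and numbered by sample title. Per the paper's methods and the labels, the authors trimmed reads, aligned them to GRCm38 (mm10 in the submitters' processing notes) with Bowtie2, and deposited an estimated count per RefSeq transcript, unscaled. HISAT2 and RSEM are also named in those notes. The authors also deposited TPM values, corrected for transcript length. A further 10 columns (FPKM values per library and the authors' condition means) were not used.

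Counts and TPM were summed per gene ID. Symbols and coordinates came from RefSeq (GRCm38.p6), which held 17323 of 17374 gene IDs. The tests took the estimated counts as nearest whole numbers and ran under R 4.3.3 in edgeR 4.0.16 (TMM, glmQLFit and glmQLFTest after filterByExpr at min.count 10, Benjamini-Hochberg adjustment over all features), and isoform usage with diffSpliceDGE. The SE is the log2 fold change divided by the square root of F, and intervals use the fit's degrees of freedom. Call limits were those of the study's methods. DESeq2 1.42.0, limma 3.58.1 (voom, and log2(TPM + 1) or log2(TPM + 0.1)), other scalings, no filter, a replicate block and leaving out each library were alternatives. Reads had been divided among transcripts before deposit, so a transcript's value carries that error. A gene's summed count does not, except between genes of like sequence. Its summed TPM can carry it, since each transcript is corrected for its own length. Counts up to 3 were taken as a floor, and intervals cover the spread between these libraries. Plots came from matplotlib 3.10.9 (Python 3.11.15).

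The members and lists were chosen with earlier results of these data known. Named genes are the 9 members, their transcripts holding at least 5% of the gene's TPM in the mean of a condition or with an unadjusted p under 0.05, and from each list the highest, the lowest and those with an unadjusted p under 0.05. Transcripts of Sun1, Hmga1 and other members whose shares varied widely are given by counts or grouped by protein length. Levels, shares and lists carry no test. With 2 libraries against 2, an exact permutation test could not reach the threshold and was not used.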

Additional observations from a re-analysis of the deposited data

How the results depend on the processing

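No alternative called a member by both limits. Over all genes, 1 gene total was called by the reported test, 0 with library size alone, by limma-voom and by limma on log2(TPM + 1), on log2(TPM + 0.1) or without the filter, 3 without the filter, 4 by DESeq2, 10 by edgeR's exact test, and 16 to 84 when a library was left out. Transcript calls went from 0 to 246 with DESeq2 and 247 with the exact test. Genes called for isoform usage went from 16 to 58 with the gene-level F test, 8 without the filter, and 1 to 29 when a library was left out. With the replicate block, 7 gene totals and 3 genes of isoform usage were called. The labels do not say that replicate numbers mark a shared batch, and same-numbered deviations correlated at 0.0975 for gene totals and 0.0206 for transcripts. Some member shares still went with replicate number in both conditions. Library 2 lay above library 1 for lamin A (34.2% against 1.56% in controls, 19.6% against 6.33% after irradiation). It lay below for LAP2 beta and for the 107-residue HMGA1 form (4.23% against 78.9%, 28.8% against 76.3%). LAP2 alpha, lamin C and the 596-residue Lmnb2 transcript went opposite ways between the conditions. The cause of these shares, and of the moves in calls, was not tested.

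Of 126 alternative values of the member totals, 14 changed sign. Lmnb2 went to 0.048 with library size alone, 0.052 with log2(TPM + 1) with or without the filter, 0.10 with log2(TPM + 0.1), and -0.41 to 0.18 when a library was left out. Lbr went to 0.0071 in the 3 TPM fits and -0.54 to 0.095 when a library was left out. Tmpo went to 0.12 with library size alone, 0.16 with log2(TPM + 1) with or without the filter, and 0.19 with log2(TPM + 0.1). Lmnb1 ran from -1.34 to 1.28 when a library was left out. Of 66 values of the 6 transcripts with a fold change in the text, 6 changed sign. With library size alone LAP2 alpha went to 0.026 and LAP2 beta to 0.058. When a library was left out, LAP2 beta ran from -0.34 to 0.17, the main Lbr transcript from -0.48 to 0.12, and the main Emd transcript from -0.017 to 0.098. Lmna, Hmga1, Hmga2, Emd and Sun1 kept their sign in all 14 alternatives. The value of Sun1 lay between -0.36 and -0.017 in these alternatives. The adjusted p of Lmna ran from 2.06e-05 to 1 over them and that of Hmga1 from 1.3e-13 to 1, the lowest in the fit without irradiated library 1, where 34.3% of all genes passed 0.05. Depth limits Lmnb1 most, with 5 to 39 counts.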
